A study of Mus musculus with 2 samples.

Results

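Cluster 9 of the deposited clustering was examined as the group 2 innate lymphoid cell (ILC2) population of the mouse colon. Its members are the cells that the deposited metadata assign to cluster 9, which were 237 of 6886 cells in all, 129 of them in the library of 5XFAD mice and 108 in that of wild-type (WT) mice. 5XFAD is a mouse model of Alzheimer disease in which human transgenes for the amyloid precursor protein and presenilin 1, with familial disease mutations, are driven in neurons by the Thy1 promoter, so the transgenes are not aimed at colon or immune cells. Both groups were 9-month-old female mice and the WT mice were littermates of the 5XFAD mice. Live CD45+ cells, CD45 being the surface protein shared by leukocytes, were sorted from dissociated colon and profiled by droplet single-cell RNA-seq at the transcripts' 3′ ends. Each genotype is a single library made from the pooled cells of 3 mice, so the spread between mice is not measured, no test between genotypes is possible, and every difference below is one between 2 libraries.

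ILC2 are tissue-resident lymphocytes without a rearranged antigen receptor. They respond to epithelial alarmins such as IL-33 and IL-25 and to neuropeptides, and they secrete the type 2 cytokines IL-5 and IL-13, which recruit eosinophils and drive mucus production, together with amphiregulin, an epidermal growth factor family ligand linked to repair. Their identity depends on the transcription factor GATA3. In the gut they sit in the lamina propria beside group 1 innate lymphoid cells and NK cells (interferon producers) and group 3 innate lymphoid cells (IL-22 producers). Cluster 12, with NK cell and group 1 genes, cluster 16, with group 3 genes, and cluster 8, with regulatory T cell genes, served as the closest populations for comparison, and cluster 0, a B cell cluster, as a cell type that should lack ILC2 transcripts.

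The 129 5XFAD cells held 747459 unique molecular identifiers (UMIs, each 1 captured transcript) and the 108 WT cells 679680. The median cell had 5559 UMIs and 1657 genes in 5XFAD and 6268.5 UMIs and 1824 genes in WT, and the median share of mitochondrial UMIs was 4.15% and 4.19%. Levels are given as CPM, the UMIs of a gene per 1000000 UMIs of the cluster in 1 library. Shares of cells with a UMI come from cells thinned to 3000 UMIs apiece, 129 in 5XFAD and 106 in WT. Intervals are 95% and cover counting error only: exact Poisson for CPM, Clopper-Pearson for shares and exact conditional binomial for ratios. They are too narrow for genes whose UMIs sit mostly in a handful of cells. The libraries shared 3 cell barcodes over all cells and 0 within cluster 9, and 3 WT cells but 0 5XFAD cells of the cluster had 2500 or more genes detected.

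Cluster 9 carried the 6 markers given for ILC2. Il5, which encodes the eosinophil growth factor IL-5, stood at 678 CPM in 5XFAD (interval 621 to 740) and 793 CPM in WT (727 to 863). Il13, which encodes IL-13, stood at 270 CPM in 5XFAD (234 to 310) and 224 CPM in WT (189 to 262). Both were nearly confined to the cluster in these libraries: it held 98.6% and 96.8% of all Il5 UMIs of the 5XFAD and WT libraries and 97.6% and 98.1% of all Il13 UMIs. Calca, which encodes the neuropeptide calcitonin gene-related peptide and calcitonin, was at 835 and 484 CPM, with 79.0% and 81.2% of the libraries' UMIs in cluster 9. Arg1, the arginine-degrading enzyme arginase 1, was at 143 and 271 CPM, with 73.3% and 80.7% of its UMIs there.

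Gata3 and Areg were shared with other cells. Gata3 was at 858 CPM in 5XFAD against 796 CPM in WT in cluster 9, against 459 and 467 CPM in cluster 8 and 173 CPM or less in clusters 12 and 16. Areg, the amphiregulin gene, was at 931 and 880 CPM in cluster 9 and at 977 and 699 CPM in cluster 8. In the order of all 17 clusters by Areg level, cluster 9 came 2nd in 5XFAD and 1st in WT, next to cluster 8 each time. Il1rl1, which encodes the IL-33 receptor, had the same neighbour: 239 and 256 CPM in cluster 9 and 341 and 360 CPM in cluster 8, with 0 UMIs in cluster 12 of both libraries. Il17rb, which encodes a chain of the IL-25 receptor, was at 115 and 147 CPM in cluster 9 and at most 17.9 CPM in clusters 12, 16 and 8, and the cluster held 86.0% and 82.6% of its UMIs.

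**Figure D1:**
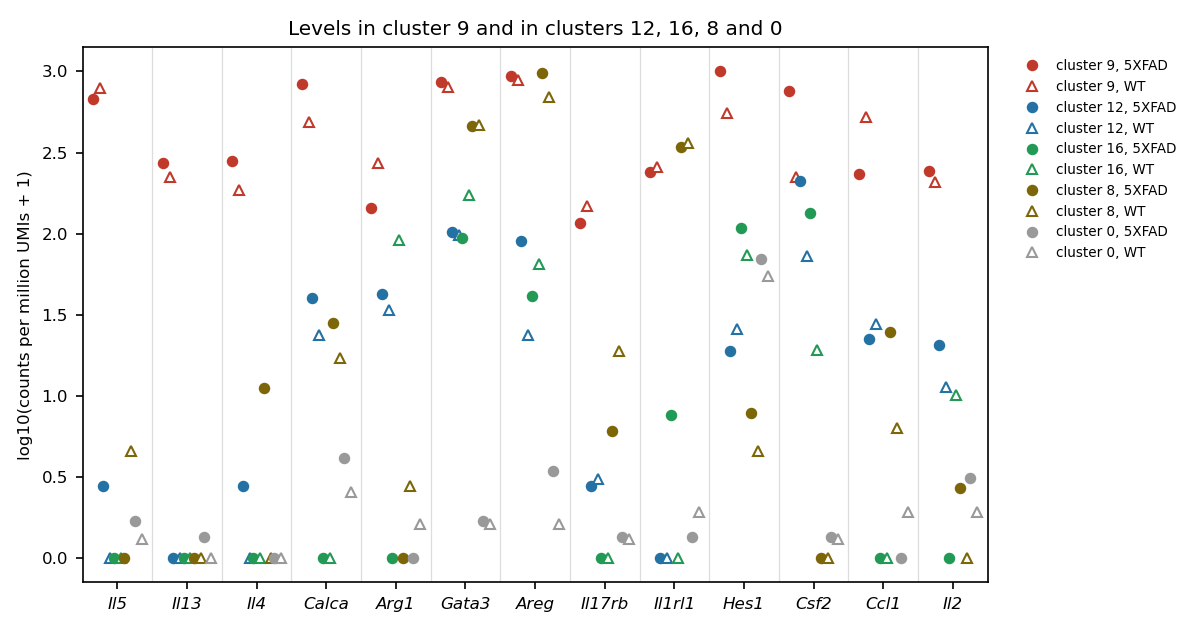
Level of 13 genes in clusters 9, 12, 16, 8 and 0, as log10 of the CPM plus 1, with filled circles for the 5XFAD library and open triangles for the WT library. Il5, Il13, Il4 and Il17rb stood highest in cluster 9 in both libraries, while Areg, Il1rl1 and Gata3 were also high in cluster 8 and Csf2 in cluster 12.

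At the level of cells, 87 of 129 5XFAD cells (67.4%) and 67 of 108 WT cells (62.0%) had UMIs of at least 3 of the 6 markers, and every one of the 237 cells had at least 1. In clusters 12, 16 and 8 the share with 3 or more was at most 2.63%. The clusters were formed from the expression of such genes, so these differences between clusters describe the clustering and were not tested.

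The 3 type 2 cytokine genes lie together on chromosome 11. In the GENCODE annotation of the GRCm38 (mm10) build, Il4 spans positions 53602982 to 53618669 on the minus strand, Il13 53631324 to 53634702 on the minus strand and Il5 53720794 to 53725106 on the plus strand, and all 3 are protein coding. Because their transcripts were so concentrated in cluster 9, the RefSeq sequence (GRCm38.p6) of the 250 bases before each start is shown, 5′ to 3′ on the gene's strand, from chr11:53720544-53720793 for Il5, chr11:53634703-53634952 for Il13 and chr11:53618666-53618915 for Il4. Capitals mark the GATA hexamers, which are AGATAA, its variant AGATAG, the form TGATAA and its variant TGATAG, and also the NFAT core GGAAA, each searched on both strands.
Il5: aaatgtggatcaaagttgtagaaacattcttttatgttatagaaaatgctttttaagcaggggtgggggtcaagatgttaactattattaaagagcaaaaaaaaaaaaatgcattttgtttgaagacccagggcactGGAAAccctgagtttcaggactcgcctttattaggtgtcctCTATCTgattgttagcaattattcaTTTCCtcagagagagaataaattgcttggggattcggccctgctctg
Il13: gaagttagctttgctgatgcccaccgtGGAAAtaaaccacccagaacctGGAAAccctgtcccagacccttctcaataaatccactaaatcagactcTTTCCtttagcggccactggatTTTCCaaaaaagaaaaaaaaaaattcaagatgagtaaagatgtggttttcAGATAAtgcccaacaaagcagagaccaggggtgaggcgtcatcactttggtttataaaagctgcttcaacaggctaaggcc
Il4: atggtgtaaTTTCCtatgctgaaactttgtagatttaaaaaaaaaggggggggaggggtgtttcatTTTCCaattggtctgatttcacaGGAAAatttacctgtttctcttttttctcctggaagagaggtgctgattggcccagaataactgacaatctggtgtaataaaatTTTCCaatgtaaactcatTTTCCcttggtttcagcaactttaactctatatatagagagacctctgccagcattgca
Il5 had 1 GATA hexamer, which began 72 bases before the start on the opposite strand, and Il13 had 1, which began 81 bases before it on its own strand. Il4 had 0 in this window and 5 copies of GGAAA, against 2 in the Il5 window and 4 in the Il13 window. Of 32851 RefSeq promoter windows of the same length, 26.5% held a GATA hexamer and 55.6% held GGAAA, so both are common strings. The AP-1 site TGANTCA, present in 6.75% of windows, was in none of the 3. These matches describe the sequence only and no binding was measured here.

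Among 2096 genes with at least 50 CPM in cluster 9 of both libraries, 42 (2%) stood at least 2-fold above each of clusters 12, 16 and 8 in both libraries. They included 7 of the 9 type 2 effector genes measured at that level, 2 of 21 receptor and surface genes and 0 of 14 transcription factors. The 25 with the largest margin included the cytokines Il5, Il13, Il4 and Il2, the growth factor gene Csf2 and the chemokines Ccl1 and Cxcl1. Cxcl1, a neutrophil attractant gene, was at 58.9 and 75.0 CPM, but 1 WT cell that also had UMIs of CD3 genes of T cells held 30 of its 51 UMIs in WT. Without the CD3-positive cells, those with UMIs of 2 or more CD3 genes, it stood at 32.8 CPM in WT, under the minimum of 50 CPM, and its log2 ratio of 5XFAD over WT moved from -0.35 (-0.97 to 0.26) to 0.94 (0.16 to 1.76). Il4, the cytokine gene that drives IgE switching, was at 280 CPM in 5XFAD against 184 CPM in WT, with 93.7% and 90.6% of all its UMIs in cluster 9. Il2, a T cell growth factor gene, was at 241 and 207 CPM, with 75.0% and 67.1% of its UMIs there. Ccl1, which encodes the ligand of the chemokine receptor CCR8, was at 233 and 519 CPM, and at most 26.7 CPM in clusters 12, 16 and 8.

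The same 25 held genes outside the cytokine group. Hes1, a transcriptional repressor downstream of Notch, was at 1001 and 556 CPM in cluster 9 and at most 107 CPM in the other 3. Lmo4, a LIM domain transcriptional cofactor, was at 1814 and 1289 CPM against at most 501 CPM there. Slc7a8, an amino acid transporter gene, was low, at 71 and 66 UMIs in cluster 9, but the cluster held 95.9% and 85.7% of its UMIs. Ptpn13, a tyrosine phosphatase gene, was at 685 and 636 CPM and at most 138 CPM in those clusters. Hs3st1, a heparan sulfate sulfotransferase gene, was at 528 and 534 CPM with 3.58 CPM or less in clusters 12, 16 and 8, yet B cells carried it too, and only 15.8% and 19.1% of its UMIs lay in cluster 9. The remaining genes included Npnt, Il17rb, Calca, Abhd17c, Lpcat2, Gcnt1, Spcs3, Arg1, Otulinl, Faah, Gnaq and Rnf128.

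Some defining genes of the neighbouring populations were at 0 in cluster 9, while others were present. Foxp3, the regulatory T cell factor, Eomes and Gzma of NK cells, and Il23r of group 3 cells had 0 UMIs in both libraries, which, with 3 cells taken as the most that a count of 0 allows, limits the share of cells with a UMI to 2.33% in 5XFAD and 2.78% in WT. The upper Clopper-Pearson bounds for the same counts were 2.82% and 3.36%. Il22, the group 3 cytokine gene, had 2 UMIs in 5XFAD and 0 in WT. The NK and group 1 list summed to 650 and 753 CPM in cluster 9 against 17588 and 12546 CPM in cluster 12. Nkg7, a cytotoxic granule gene at 221 and 250 CPM, was its highest member. Klrk1, an activating receptor gene, was at 61.5 and 135 CPM, and Ncr1, the NKp46 receptor gene, had a UMI in 9.30% and 9.26% of the cells. The regulatory T cell list summed to 1882 and 1851 CPM in cluster 9 against 8170 and 6102 CPM in cluster 8. Its members Ikzf2, which encodes the factor Helios, at 131 and 181 CPM, and Tnfrsf9, a costimulatory receptor gene, at 88.3 and 50.02 CPM, were above 0 in both libraries. The group 3 list summed to 1358 and 1326 CPM against 21874 and 7226 CPM in cluster 16. The part of such cells in the results was not tested. The B cell list summed to 751 and 1014 CPM in cluster 9 against 37887 and 35287 CPM in cluster 0, and of 12 mast cell and basophil genes 9 were at 0 in both libraries, with Kit, a receptor that innate lymphoid cells also carry, making up most of the rest.

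T cell receptor constant transcripts were found in most cells, while CD3 transcripts were found in fewer. Trbc1 or Trbc2, the T cell receptor beta constant genes, had a UMI in 95.3% of 5XFAD and 98.1% of WT cells of cluster 9. The shares were 95.1% and 88.6% in cluster 12, 52% and 64.7% in cluster 16 and 92.5% and 93.9% in cluster 8. At least 1 of Cd3e, Cd3d and Cd3g, which encode the receptor's signalling chains, had a UMI in 17.8% and 25% of cells of cluster 9. These shares were 9.80% and 15.9% in cluster 12, 0% and 5.88% in cluster 16 and 98.5% and 96.5% in cluster 8. UMIs of 2 or more of these genes were found in 8 of 129 and 6 of 108 cells (6.20% and 5.56%), against 90.2% and 89.5% of cluster 8. Outside these 14 cells Cd3g still had 40 UMIs in 5XFAD and 57 in WT. Those 14 cells touch several results below, so results that they move are also given without them, as an alternative chosen after seeing the data. Whether they are T cells or doublets was not tested.

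The type 2 cytokine transcripts were unevenly spread over the cells of cluster 9. After thinning, Il5 was found in 27.1% of 5XFAD cells (19.7 to 35.7) and 35.8% of WT cells (26.8 to 45.7), against 37.2% and 46.3% without thinning. In cluster 0, at medians of 5018 and 4724.5 UMIs, the thinned shares for Il5 were 0.370% and 0%. The 5 cells with most Il5 UMIs carried 55.03% of all Il5 UMIs of the cluster in 5XFAD and 49.0% in WT, and single cells reached 97 and 82 UMIs. Gata3, by contrast, was found in 78.3% of cells in both libraries after thinning, and its 5 richest cells held 15.9% and 16.1% of its UMIs.

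Il13 was found in 27.9% of 5XFAD cells (20.4 to 36.5) and 17.9% of WT cells (11.2 to 26.6) after thinning. Il4 showed a wider gap, 41.1% (32.5 to 50.1) against 20.8% (13.5 to 29.7). These intervals take the cells of 1 pooled library as independent and give no test between genotypes. Calca was found in 46.5% and 34.0% of cells and Areg in 48.8% and 52.8%. Arg1 went the other way, with 24.8% (17.6 to 33.2) in 5XFAD and 37.7% (28.5 to 47.7) in WT. The share of these genes in cluster 0 was at most 0.741%.

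**Figure D2:**
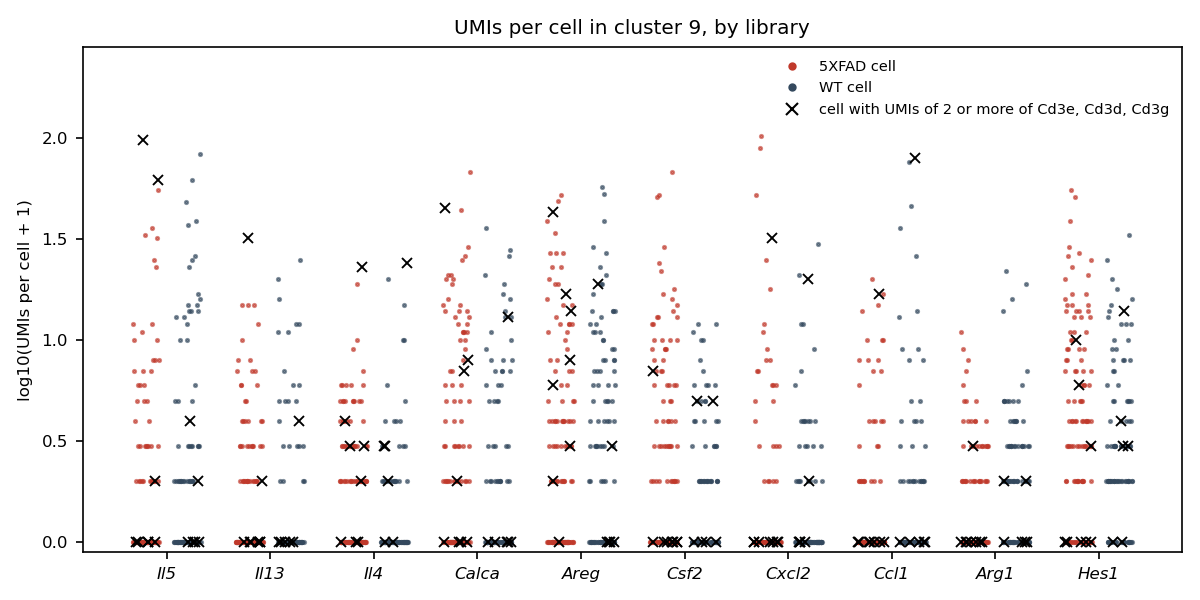
UMIs per cell of 10 genes in cluster 9, as log10 of the count plus 1, with 1 point per cell (red, 5XFAD; dark blue, WT) and crosses for cells with UMIs of 2 or more CD3 genes. Most cells lay at 0 for Il5 and Il13 while single cells reached 97 Il5 UMIs, and the 5XFAD cell with most Il5 UMIs was a CD3-positive cell.

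Pairs of transcripts met in the same cells to differing degrees. The pairs named here were picked after their values were seen, the cells of 1 library share its preparation, and the counts are a description of thinned cells. Il13 was found in 48.6% of 5XFAD cells with Il5 and in 20.2% of those without it, and in WT in 28.9% and 11.8%. Cxcl2, a neutrophil-attracting chemokine gene, was found in 40.0% of Il5-positive and 12.8% of Il5-negative 5XFAD cells, and in 36.8% and 8.82% in WT. Areg was found in 81.6% of Il5-positive and 36.8% of Il5-negative WT cells, with a narrower gap of 57.1% and 45.7% in 5XFAD. Il4 and Il5 showed no such gap in either library, since Il4 was found in 40.0% of Il5-positive and 41.5% of Il5-negative cells in 5XFAD and in 15.8% and 23.5% in WT. Il4 and Arg1 met in 1 WT cell, with Arg1 in 4.55% of Il4-positive and 46.4% of Il4-negative cells, while in 5XFAD they met in 14 cells, with Arg1 in 26.4% and 23.7%.

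Turning to the comparison of the libraries, cluster 9 made up 129 of 3443 cells (3.75%, 3.14 to 4.44) in 5XFAD and 108 of 3443 (3.14%, 2.58 to 3.77) in WT. The log2 ratio of the shares was 0.26 (-0.12 to 0.64), an interval that includes no change. Clusters 12, 16 and 8 had ratios of 0.21, 0.56 and 0.22. Of the cells of clusters 8 to 16, which leave out the B cell clusters, cluster 9 made up 16.4% and 16.2%, a ratio of 0.01 (-0.37 to 0.40), and of the innate lymphoid clusters 9, 12 and 16 it made up 50.4% and 50.7%.

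In cluster 9, 3106 genes reached 50 UMIs when the libraries were added. Of these, 41 (1.32%) were at least 2-fold higher in 5XFAD and 57 (1.84%) at least 2-fold lower, 98 (3.16%) in either direction, and the median log2 ratio of all of them was -0.02. Among the 12 type 2 effector genes measured, 3 were at least 2-fold higher (Csf2, Cxcl2 and Tnfsf8) and 1 was at least 2-fold lower (Ccl1), with a list median of 0.18. None of 26 receptor genes and none of 16 transcription factor genes passed 2-fold in either direction.

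Csf2, which encodes the myeloid growth factor GM-CSF and lies on chromosome 11 at 54247271 to 54249667, was at 756 CPM in 5XFAD (695 to 821) and 224 CPM in WT (189 to 262). The log2 ratio was 1.76 (1.50 to 2.03). The shares of cells with a Csf2 UMI were closer, at 42.6% and 34.0% after thinning with overlapping intervals, while 16 cells in 5XFAD and 3 in WT had 10 or more Csf2 UMIs and the highest cell had 67 and 11. The 14 CD3-positive cells carried 1.06% and 5.26% of the Csf2 UMIs, and without them the ratio was 1.83 (1.56 to 2.10). Cluster 12 showed a ratio of 1.55 (0.999 to 2.14) for the same gene, at 211 and 72.0 CPM, so the difference was not limited to cluster 9.

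Cxcl2 was at 543 CPM in 5XFAD against 219 CPM in WT, giving a log2 ratio of 1.31 (1.03 to 1.59). Its shares of cells were close, 20.2% and 18.9%, and its 5 richest cells held 72.7% and 60.4% of its UMIs. The same gene had a ratio of 1.56 in cluster 12 and -0.74 (-1.31 to -0.17) in cluster 16. Tnfsf8, which encodes CD30 ligand, had 77 UMIs in 8 cells in 5XFAD and 3 UMIs in 2 cells in WT, a ratio of 4.54 (2.94 to 6.85). The 5 richest 5XFAD cells held 96.1% of its UMIs and the CD3-positive cells 42.9%, so its value describes a few cells.

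Calca was at 835 CPM in 5XFAD (771 to 903) and 484 CPM in WT (433 to 539), a log2 ratio of 0.79 (0.59 to 0.98), and 0.71 (0.51 to 0.91) without the CD3-positive cells. In clusters 12 and 8, with only 33 and 25 Calca UMIs, the ratios were 0.80 (-0.30 to 1.99) and 0.76 (-0.51 to 2.12). Cluster 13 held 77 Calca UMIs in 5XFAD and 28 in WT, at 167 and 94.7 CPM, so a higher Calca level was not limited to cluster 9. Il4 had a ratio of 0.60 (0.28 to 0.94), 0.76 without those cells and 1.09 after thinning. Hes1 had a ratio of 0.85 (0.67 to 1.03), and 26 5XFAD cells against 12 WT cells had 10 or more Hes1 UMIs. Arg1 was lower in 5XFAD, with a ratio of -0.92 (-1.28 to -0.57) that was -0.92 without the CD3-positive cells too. Ccl1 had a ratio of -1.16 (-1.43 to -0.89), and -0.92 (-1.21 to -0.63) without the CD3-positive cells, 1 of which held 79 of the 353 WT UMIs.

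The signature cytokines Il5 and Il13 differed little between the libraries when all cells were counted. Il5 had a log2 ratio of -0.23 (-0.40 to -0.05) and Il13 one of 0.27 (-0.04 to 0.59). The Il5 difference moved with the CD3-positive cells: 3 of the 8 in 5XFAD carried 31.4% of the Il5 UMIs, and the 6 in WT carried 0.742%. Without them Il5 was at 497 CPM in 5XFAD against 835 CPM in WT, a ratio of -0.75 (-0.95 to -0.55), and Il13 had a ratio of 0.06 (-0.26 to 0.39). Areg had a ratio of 0.08 (-0.08 to 0.24) and Gata3 one of 0.11 (-0.06 to 0.28), both with intervals that include no change. Il2, at a ratio of 0.22 (-0.11 to 0.54), turned to -0.33 (-0.70 to 0.03) without the CD3-positive cells, 1 of which held 55 of its 180 5XFAD UMIs.

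A few cytokine transcripts of other programmes appeared in single 5XFAD cells. Il17a had 22 UMIs in 3 cells and Il17f 14 UMIs in 2 cells in 5XFAD, with 0 UMIs of either in WT. Il3 had 35 UMIs, all in 1 5XFAD cell. Il9, also a known ILC2 cytokine gene, had 0 UMIs in both libraries. Ifng, the type 1 cytokine gene, was found in 6 5XFAD and 10 WT cells without thinning.

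**Figure D3:**
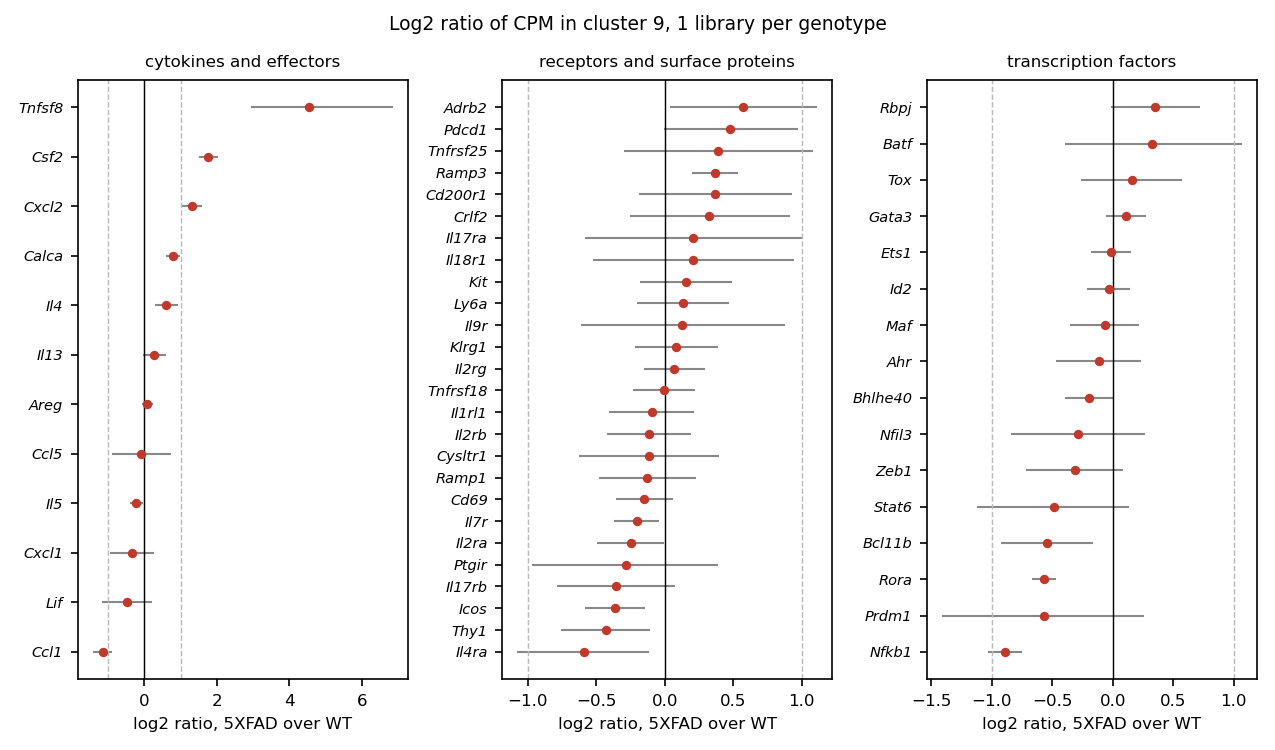
Log2 ratio of CPM in cluster 9, 5XFAD over WT, for the effector, receptor and transcription factor genes that reached 50 UMIs in the libraries together; bars are 95% counting intervals, dashed lines mark 2-fold, and the 3 panels have different x scales. Tnfsf8, Csf2 and Cxcl2 lay above 2-fold and Ccl1 below it, while all receptors and transcription factors lay within 2-fold.

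The receptors by which ILC2 sense their surroundings were close to evenly split, 13 of 26 being higher and 13 lower in 5XFAD, with a list median of 0.03. The alarmin receptor genes Il1rl1 and Il17rb had ratios of -0.10 (-0.41 to 0.21) and -0.35 (-0.79 to 0.08). Klrg1, an inhibitory lectin receptor gene found in 51.2% and 50% of thinned cells, had a ratio of 0.08 (-0.22 to 0.39). Ramp3, a partner protein of the calcitonin family receptors, was at 928 and 719 CPM with a ratio of 0.37 (0.20 to 0.54). Its neighbour in that pathway Ramp1, which forms the receptor for the Calca product with Calcrl, was at 185 and 202 CPM with a ratio of -0.13 (-0.48 to 0.23), and Calcrl had 14 and 13 UMIs. Lower in 5XFAD were Icos, a costimulatory receptor gene, at -0.36 (-0.58 to -0.14), Il7r at -0.20 (-0.37 to -0.04), Thy1 at -0.43 (-0.75 to -0.11) and Il4ra at -0.59 (-1.07 to -0.11). In clusters 12, 16 and 8, Ramp3 had ratios of 0.42, 0.47 and 0.39 and Thy1 -0.31, -0.69 and -0.53. Il7r was at -0.41, -0.56 and 0.29 there, Il4ra at -0.61, -0.37 and 0.02 and Icos at -0.00322, 0.12 and 0.35. The intervals included no change for Ramp3 and Icos in clusters 12 and 16, Thy1 in cluster 12 and Il4ra in clusters 16 and 8.

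Of the 16 transcription factor genes measured, 12 were lower in 5XFAD, beside 1610 of all 3106 genes measured. Their list median was -0.16 against -0.02 for all genes. In clusters 12, 16, 8 and 0 the list had medians of -0.29, -0.13, -0.10 and -0.34, with 13 of 17, 7 of 9, 12 of 19 and 11 of 14 genes lower. Of all genes measured in those clusters, 1571 of 2923, 310 of 722, 1696 of 3243 and 4125 of 7474 were lower. The lean of this list was thus not limited to cluster 9. Nfkb1, which encodes the NF-kB subunit p50 and its precursor, was at 892 CPM in 5XFAD against 1654 CPM in WT, a ratio of -0.89 (-1.03 to -0.75). Rora, a nuclear receptor gene needed for ILC2 development, was at 1927 and 2853 CPM, a ratio of -0.57 (-0.67 to -0.47). Bcl11b, which supports ILC2 identity, was at 140 and 205 CPM, a ratio of -0.54 (-0.92 to -0.17). In clusters 12, 16 and 8 Nfkb1 had ratios of -0.51, -0.99 and -0.43 and Rora -0.40, -0.13 and -0.17, the interval for Rora in cluster 16 including no change (-0.36 to 0.09). These clusters come from the same libraries and are not independent repeats of the comparison.

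More genes were lower than higher in 5XFAD in the NF-kB, calcium and NFAT, and TGF-beta lists, beside 1610 of all 3106 genes measured that were lower. Of 20 NF-kB pathway genes measured, 16 were lower, with a median of -0.41, or -0.19 with a minimum of 20 UMIs. They included Tnip1 at -0.95 and the inhibitor gene Tnfaip3 at -0.51, and Irak1, a kinase of the IL-1 receptor family pathway, was at -1.11 (-1.90 to -0.35) and the only one past 2-fold. All 8 calcium and NFAT pathway genes measured were lower, with a median of -0.48, among them Stim1, the calcium store sensor gene, at -0.71. Of 9 TGF-beta pathway genes 8 were lower, with a median of -0.35, among them Smad4, the shared signal transducer, at 61.5 and 165 CPM and -1.42 (-1.95 to -0.91). The alarmin signalling list lay nearer to the share over all genes, with 10 of 16 lower around a median of -0.17. Its lower members included Socs2, a cytokine feedback inhibitor gene, at -0.52. In the cyclic AMP and CGRP list 7 of 13 were higher, around a median of 0.09 that was -0.07 without the CD3-positive cells. The medians of the NF-kB list in clusters 12, 16, 8 and 0 were -0.23, -0.21, -0.02 and -0.02, and those of the calcium list -0.28, 0.29, -0.38 and -0.59. Those of the TGF-beta list were -0.26, -0.17, -0.20 and -0.04, with 8 of 9, 2 of 3, 8 of 10 and 7 of 12 genes lower. Of all genes measured in these clusters, 1571 of 2923, 310 of 722, 1696 of 3243 and 4125 of 7474 were lower. The TGF-beta list thus leaned lower in clusters 12 and 8 too. In cluster 0 it lay near the share over all genes, and in cluster 16 only 3 of its genes were measured. Smad4 had ratios of -0.33, -0.13 and -0.75 in clusters 12, 16 and 8, and only the interval in cluster 8 (-1.40 to -0.11) excluded no change.

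Heat shock genes leaned lower too, 11 of 15 with a median of -0.40, beside 1610 of all 3106 genes measured. Hsp90aa1, an inducible chaperone gene, was at 381 and 845 CPM, a ratio of -1.15 (-1.36 to -0.94), and Hsph1 at -1.66 (-2.61 to -0.78). Cluster 0 had a median of -0.55 for this list, and clusters 12, 16 and 8 had medians of -0.29, -0.07 and -0.19. Hsp90aa1 was at -0.55 (-0.75 to -0.35), 0.14 (-0.33 to 0.63) and -0.55 (-0.75 to -0.35) in clusters 12, 16 and 8. The immediate early genes, which cell dissociation can induce, had a median of 0.08 with 13 of 24 higher, and its members went both ways: Egr1 was at 131 and 45.6 CPM, a ratio of 1.52 (0.93 to 2.16), while Nr4a3 was at -0.97 (-1.13 to -0.81) and Klf4 at -0.96 (-1.18 to -0.75). The part of dissociation in these values was not tested.

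Nuclear genes of the respiratory chain leaned higher in 5XFAD, 33 of 41 with a median of 0.31, beside 1496 of all 3106 genes measured. They included Atp5md (907 and 406 CPM, a ratio of 1.16), Ndufa1 (1.04) and Ndufa3 (1.01). This list was higher in all the clusters set beside cluster 9, with medians of 0.33 in cluster 12, 0.51 in cluster 16, 0.30 in cluster 8 and 0.44 in cluster 0. The glycolysis genes Ldha and Aldoa had ratios of 0.65 (0.40 to 0.90) and 0.45 (0.22 to 0.69) in cluster 9. They come from the arginine and lipid metabolism list, which showed no lean: 6 of 13 genes were higher and 7 lower, with a median of -0.03. Its members Arg1, at -0.92, and Dgat1, at -0.64 (-0.91 to -0.38), were lower. Of 8 interferon-gamma response genes measured 7 were higher, with a median of 0.23, led by Gbp4 at 0.89 (0.21 to 1.60). Only 1 of the 8 had an interval above no change. The medians of this list in clusters 12, 16, 8 and 0 were -0.07, 0.29, -0.09 and -0.55. Ifng, the gene of the cytokine itself, had a ratio of -1.09 (-2.03 to -0.21) in cluster 9. Whether an interferon-gamma response differed was not tested. The MHC class I list had a median of -0.03 with 7 of 15 higher, and the proliferation list had 4 of 18 genes at 50 UMIs, while the dividing-cell gene Mki67 had 1 and 4 UMIs.

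**Figure D4:**
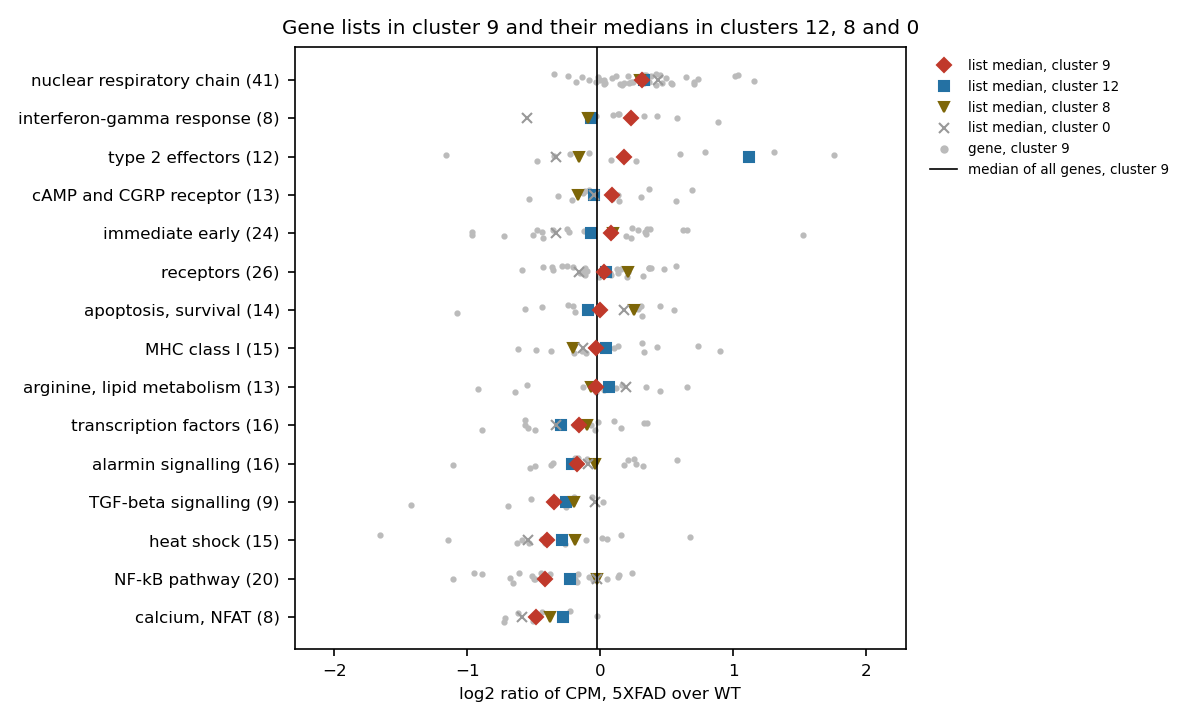
Log2 ratio of CPM, 5XFAD over WT, for the genes of 15 lists in cluster 9 (grey points; number with at least 50 UMIs in brackets), with list medians in clusters 9, 12, 8 and 0 and the median of all genes of cluster 9 as a vertical line. The respiratory chain list lay to the right in all 4 clusters, the NF-kB list lay farther left in cluster 9 (-0.41) than in clusters 8 and 0 (-0.02 each), and Tnfsf8 (4.54) lies outside the x range. Each median covers the list genes with at least 50 UMIs in that cluster, so the genes differ between clusters. With a minimum of 20 UMIs the NF-kB median in cluster 9 was -0.19.

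Among the 10 genes highest in 5XFAD by the bound of their interval, beside those above, were Got1, Hist1h2bc, Pet100 and Crip1. Got1, an aspartate aminotransferase gene, had a ratio of 1.81 (0.98 to 2.74) that was 0.43 (-0.59 to 1.48) without the CD3-positive cells, which carried 62.1% of its 58 5XFAD UMIs. Crip1, a LIM domain gene, was at 999 and 503 CPM, a ratio of 0.99 (0.80 to 1.18), with 0.45, 0.95 and 0.85 in clusters 12, 16 and 8 and -0.12 in cluster 0. Hist1h2bc, a histone gene, had a ratio of 1.78 (0.87 to 2.78) and Pet100, a respiratory chain assembly gene, one of 1.47 (0.82 to 2.15), or 2.18 in thinned cells.

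Among the 10 lowest by the same bound, Igf1r, the insulin-like growth factor 1 receptor gene, was at 16.1 CPM in 5XFAD against 69.2 CPM in WT, a ratio of -2.11 (-3.16 to -1.17). In clusters 12, 16 and 8 Igf1r had ratios of -0.71, 0.34 and -0.13, each with an interval that includes no change. Nin, a centrosome gene, was at -1.75, Hmgcs1, a sterol synthesis enzyme gene, at -1.65 and Ubr4, a ubiquitin ligase gene, at -1.63. Lars2, a mitochondrial leucyl-tRNA synthetase gene, was at 1279 and 2520 CPM, a ratio of -0.98 (-1.09 to -0.86), and at -1.12, -1.17, -1.06 and -1.10 in clusters 12, 16, 8 and 0. Atp5md, at 1.01, 1.18 and 1.39 in clusters 12, 8 and 0 and higher still in cluster 16, and Lars2 thus each lay in 1 direction in each of the 5 clusters set side by side, all of which come from the same 2 libraries. Whether a ratio in cluster 9 differs from that in another cluster was not tested, since each genotype is 1 library.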

How the data were processed

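Per the submitters' processing notes, the authors used Cell Ranger 6.0.1 and the mm10 genome; how cells were filtered and clustered is not given in the sources used here. Among the deposited files, the authors' main table holds natural log values, ln(1 + UMIs per 10000), and the deposited metadata give each cell's count of UMIs, percent of mitochondrial UMIs and cluster. Exponentiating these values and multiplying by each cell's deposited total gave back whole counts: 11758401 of 11758401 nonzero values were whole within 1e-06, and sums matched in 6886 of 6886 cells. A second deposited table (SCT, natural log of corrected counts) served as an alternative. Library AD in the metadata was taken as 5XFAD, being the one that is not WT.

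UMIs were summed per cluster and library and scaled to CPM. Ratios were taken for genes that reached 50 UMIs in the libraries together. A gene at 0 in 1 library was set to a floor of 3 counts over the cluster for counting and ranking. No doublet caller was run; instead, cells with 2 or more B cell or CD3 genes were left out as an alternative (10 in 5XFAD, 12 in WT). Intervals cover counting error only and assume independent UMIs. The ratio procedure was tested on simulated counts, drawn independently for each gene as the intervals assume. UMIs gathered in a few cells were not simulated, so this cannot show how the intervals perform for such genes. Gene positions are from GENCODE vM21 and promoters from RefSeq (GRCm38.p6).

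The cluster, gene lists and tests were chosen with earlier results of these data known. Named genes were the 6 markers; the 25 genes with the largest margin over clusters 12, 16 and 8; the 10 higher and 10 lower in 5XFAD by the interval bound nearest no change (at least 50 CPM in the higher library); up to 4 members of each list by that bound, or for lists of other cell types the 3 with the highest CPM; and effectors, receptors and transcription factors with at least 50 CPM. Immunoglobulin and T cell receptor segments, ribosomal protein genes, mitochondrially encoded genes and numbered gene models were left out of rankings. Other genes in the text were chosen after their values were seen. Some genes that these rules select are not reported here. Python 3.11.15, numpy 2.4.6, scipy 1.17.1, pandas 2.3.3 and matplotlib 3.10.9 were used.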

Additional observations from a re-analysis of the deposited data

Results flagged for a closer look

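Of 3106 genes measured in cluster 9, 98 passed 2-fold between 5XFAD and WT. These were set beside clusters 12, 16 and 8 wherever a cluster had 20 or more of their UMIs. In 4 of them the log2 ratio lay in the opposite direction, also past 2-fold, in such a cluster, with both intervals excluding no change. The 4 were picked by that scan. The difference between clusters was not tested, as each genotype is 1 library. Egr1, an immediate early transcription factor gene, was at 1.52 (0.93 to 2.16) in cluster 9 and at -1.17 in cluster 12, -2.09 in cluster 16 and -1.29 in cluster 8. Its 5 richest cells in cluster 9 held 51.0% of its UMIs in 5XFAD and 54.8% in WT. Cd93, a C-type lectin-like surface receptor gene, was at -1.01 (-1.93 to -0.14) in cluster 9 and 1.46 (0.08 to 3.08) in cluster 12. Gla, the lysosomal alpha-galactosidase gene, was at -1.15 (-1.71 to -0.62) in cluster 9 and 1.32 (0.11 to 2.70) in cluster 12. Taf4b, a subunit gene of the general transcription factor TFIID, was at -1.03 (-1.67 to -0.42) in cluster 9 and 1.25 (0.32 to 2.26) in cluster 8.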

How the results depend on the processing

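No paired analysis was possible because each genotype is 1 library. The 41 higher and 57 lower genes became 198 and 251 with at least 20 UMIs, 18 and 18 with at least 100, and 23 and 33 in thinned cells, where 12 and 12 of the original genes remained. The share of higher genes among all past 2-fold was 41.8%, 47.3% with median-of-ratios scaling and 32.7% without cells of B cell or CD3 genes. The list medians that moved were, at 20 UMIs, transcription factors -0.30, B cell -0.60 and NF-kB -0.19; at 100 UMIs, effectors 0.44, receptors -0.10 and cAMP -0.0827; in thinned cells, receptors -0.15, B cell -0.81 and apoptosis 0.26. Without cells of B cell or CD3 genes the marker list was at -0.0477 and the cAMP list at -0.0703, and the latter was at -0.0698 without CD3-positive cells alone. Without WT cells of 2500 or more genes the B cell list turned to 0.0541, and in the SCT table H2-Aa, a B cell gene, turned to 0.20; the cause was not tested. Of single gene ratios under the alternatives, 902 stayed, 19 moved and 1 reversed. This tally overstates how stable the ratios are. Median-of-ratios scaling changes every ratio by the same small amount, so those ratios stay by construction. Genes with too few UMIs under an alternative were not counted, such as Got1, at 1.81 and at 0.43 without the CD3-positive cells. Cxcl1 was counted only as moved, although it went from -0.35 to 0.94 without those cells.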
